A study of Mus musculus with 12 samples.

Results

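The data compared mouse skin exposed to ultraviolet B (UVB) at 360 mJ/cm2, called U360, with skin exposed at 90 mJ/cm2, called U90. UVB is the band of ultraviolet light that causes sunburn. Both groups were skin of C57BL/6 mice, a common inbred black strain, aged 6-8 weeks, with 3 libraries of small RNA each. They come from a series of 12 libraries that also holds 3 at 180 mJ/cm2 (U180) and 3 of unirradiated skin (0 mJ/cm2, control), of the same strain and age. The comparison asked which microRNAs (miRNAs) differed between the highest and the lowest UVB dose. Its members were all mature miRNA arms that reached 1 CPM in 3 or more of the 12 libraries, 590 of the 1519 arms in the table. CPM is the number of reads of an arm per 1000000 miRNA reads. At the edge of that filter, the third-highest library of miR-6382 held 1.03 CPM and that of miR-491-5p, which was left out, 0.993 CPM. Neither the sex and body site, nor the time between irradiation and sampling, nor whether each library came from its own animal is given in the sources used here. The p-values therefore speak only to the spread among these libraries, and that spread could be technical.

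The U360 libraries held 4059152, 3843933 and 3164422 miRNA reads and the U90 libraries 3383485, 4641395 and 4871528, so that 1 read was worth 0.205 to 0.316 CPM. The limit that a count of 0 allows, 3 reads, came to 0.616 to 0.948 CPM, which covers counting error only. The skin miRNAs miR-203-3p and miR-205-5p were present in all 6 libraries, at 8216 to 70261 and 1525 to 9828 CPM. The muscle miRNA miR-1a-3p was present too, at 145352 to 190460.1 CPM. U90 replicate 3 stood apart from the other U90 libraries towards U360. It was the U90 library nearest to the U360 mean for 55 of the 66 arms that passed the test below (83.3%), and for 277 of all 590 arms (46.9%).

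A miRNA is cut from a hairpin in a longer transcript by the enzymes Drosha and Dicer, and each side of the hairpin can give a mature strand, the 5p arm and the 3p arm. A strand bound by an Argonaute protein pairs with messenger RNAs mainly through its seed, the bases near its 5′ end, and lowers their stability and translation. Arms with the same seed can act on overlapping sets of messages. In skin, miR-203 and miR-205 are made by keratinocytes, miR-223 is best known from neutrophils and other myeloid cells, and miR-21 is a common response to injury.

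The sequences below are those on which the comparison turned, grouped by role, with the seed (bases 2 to 8) in capitals. They were matched by name to RefSeq entries of build GRCm38.p6, which covered 501 of the 590 arms and 59 of the 66 that passed the test.
The first set is shown because these arms, which include those of blood cells and of injured tissue, were higher at 360 mJ/cm2, and because the miR-21a-5p and miR-21c sequences share a seed.
miR-223-3p: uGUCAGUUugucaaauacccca
miR-142a-3p: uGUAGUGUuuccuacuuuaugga
miR-139-5p: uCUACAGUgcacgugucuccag
miR-21a-5p: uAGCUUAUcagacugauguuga
miR-21c: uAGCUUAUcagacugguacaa
The second set is shown because these epithelial and pigment-cell arms were lower at 360 mJ/cm2 and, apart from miR-203-3p and miR-205-5p, fall into pairs with a shared seed.
miR-200a-3p: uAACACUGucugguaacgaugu
miR-141-3p: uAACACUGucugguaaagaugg
miR-200b-3p: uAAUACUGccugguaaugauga
miR-429-3p: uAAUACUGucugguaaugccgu
miR-203-3p: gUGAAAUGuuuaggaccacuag
miR-205-5p: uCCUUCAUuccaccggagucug
miR-204-5p: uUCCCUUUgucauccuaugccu
miR-211-5p: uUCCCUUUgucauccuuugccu
The third set is shown because it holds arms with a common seed that were changed in the same direction, together with let-7j and miR-503-5p, whose last seed base differs from that of their relatives.
let-7a-5p: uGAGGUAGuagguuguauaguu
let-7b-5p: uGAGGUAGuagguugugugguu
let-7j: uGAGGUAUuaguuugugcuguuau
miR-181c-5p: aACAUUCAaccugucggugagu
miR-181d-5p: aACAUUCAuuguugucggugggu
miR-322-5p: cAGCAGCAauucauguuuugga
miR-15b-5p: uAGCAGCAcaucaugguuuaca
miR-503-5p: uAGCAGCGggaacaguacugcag
The last set holds both arms of the hairpins whose arm balance differed most clearly between the doses.
miR-136-5p: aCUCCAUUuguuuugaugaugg
miR-136-3p: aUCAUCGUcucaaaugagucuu
miR-25-5p: aGGCGGAGacuugggcaauugc
miR-25-3p: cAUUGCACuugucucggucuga

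Between 360 and 90 mJ/cm2, 66 of the 590 arms passed the test, which was limma on log2(CPM + 1) with Benjamini-Hochberg adjusted p under 0.05. That is 11.2% of the arms. At 360 mJ/cm2, 35 were higher (5.93%) and 31 lower (5.25%), while 524 did not pass. These shares are the background for the counts of lists and regions below. Fold changes are given as log2 of U360 over U90 with their SE. The 35 higher arms ranged between 0.59 and 3.19 and the 31 lower arms between -0.69 and -2.83, and 27 of the 66 changed by less than 1. Over all 590 arms the median was 0.02, and the median arm had a 95% interval of 0.63 log2 units to each side. With TMM scaling, which uses a trimmed mean of log ratios between libraries, 37 arms were higher and 30 lower, close to the main fit. The balance of higher and lower arms differed more under other settings. It was 49 higher and 20 lower when the library totals were taken without the reads of miR-21a-5p and of miR-1a-3p, which put the median of all arms at 0.17, and with DESeq2 on the recovered reads, which differs in the model as well as the scaling, it was 37 higher and 57 lower. All 66 arms kept their direction under each of these settings. The 3 values of U360 lay entirely above or below the 3 of U90 for 192 arms (32.5%), and for 57 of the 66 that passed. The other 9 were all lower at 360 mJ/cm2, namely miR-141-3p, miR-182-5p, miR-200a-3p, miR-200b-3p, miR-203-3p, miR-205-5p, miR-31-5p, miR-429-3p and miR-92a-3p.

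**Figure D1:**
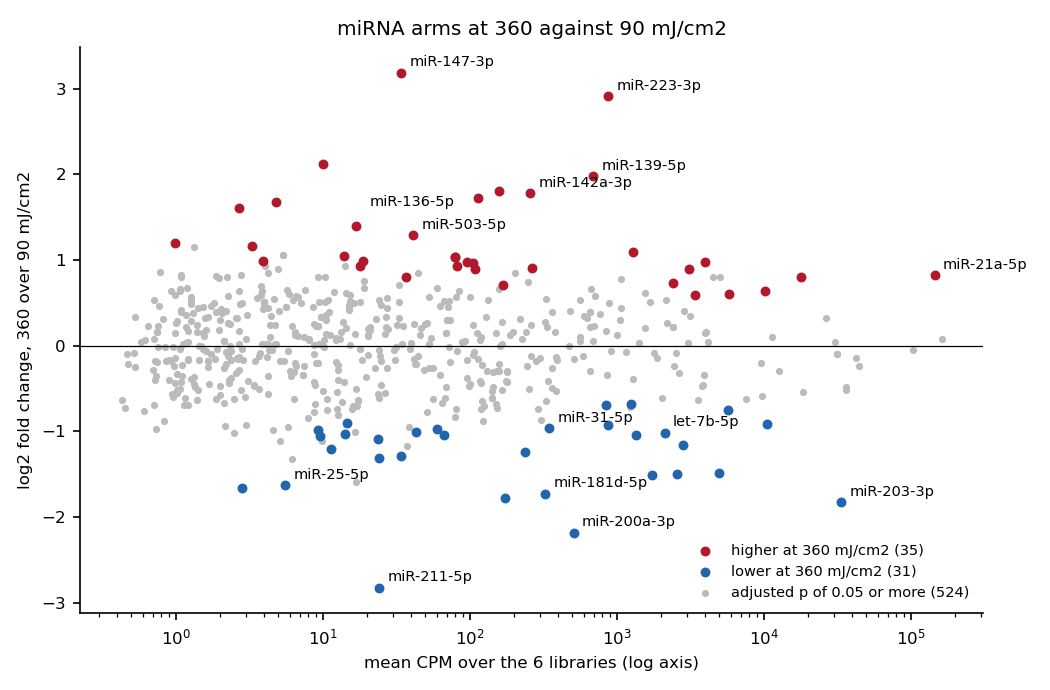
Each point is 1 of the 590 arms, with its mean CPM over the 6 libraries on a log axis across and its log2 fold change of 360 over 90 mJ/cm2 upwards. Red points (35) were higher and blue points (31) lower at 360 mJ/cm2 with an adjusted p under 0.05 (limma), and the 524 grey points did not pass.

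The calls rested on few libraries. Without U360 replicate 3, 1 arm passed (miR-6240), with 115 arms at an unadjusted p under 0.05, and without U360 replicate 1, 18 passed. Without U90 replicate 1 or without U90 replicate 2 no arm passed in limma, with 108 and 117 arms at an unadjusted p under 0.05. edgeR's quasi-likelihood test on the recovered reads called 66 arms with all libraries and likewise 0 without any of U360 replicate 3, U90 replicate 1 or U90 replicate 2. Without U90 replicate 3, the library nearest to U360, 88 arms passed in limma, of which 61 were among the 66. Each of the 66 arms kept its sign in every one of these fits. For the 57 without overlap this is built into limma, as leaving out 1 library cannot reverse groups that lie apart. The 66 were also picked for a difference in these same libraries, so the kept signs are no separate support. Each call of a single arm below is lost without U90 replicate 1 or without U90 replicate 2. The ranges given with the results show how far a fold change moved when 1 of the 6 libraries was left out.

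**Figure D2:**
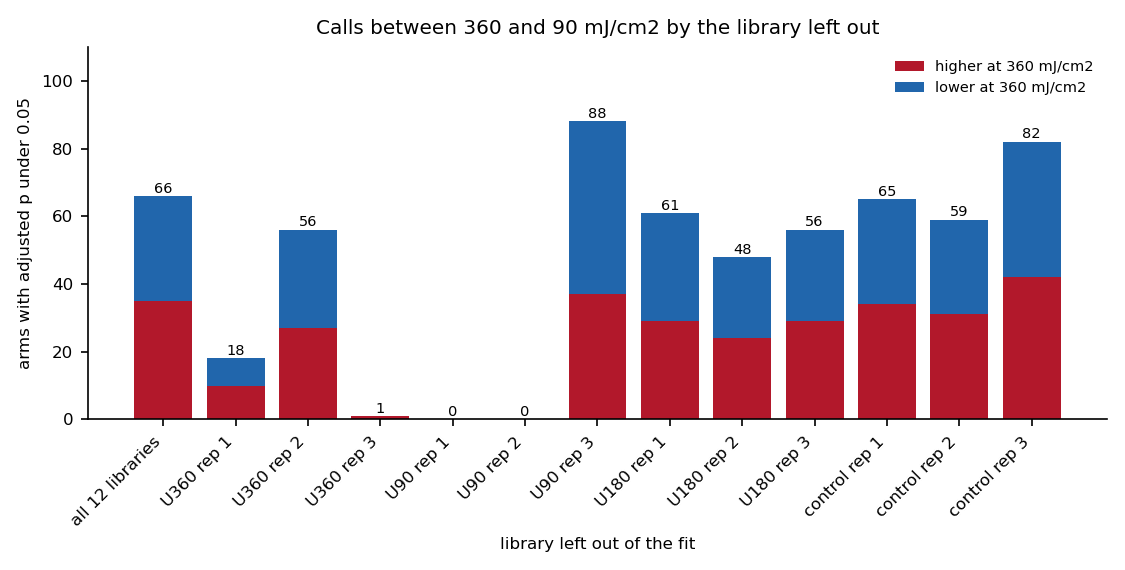
Bars give the number of arms with an adjusted p under 0.05 (limma) between 360 and 90 mJ/cm2 with all 12 libraries in the fit and with each library left out in turn, split into arms higher (red) and lower (blue) at 360 mJ/cm2. The bars stand at 0 without U90 replicate 1 or 2, at 1 without U360 replicate 3 and at 88 without U90 replicate 3, against 66 with all libraries.

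The largest rises included those of miRNAs of myeloid cells. Of 6 tested arms of miR-223, miR-147 and miR-511, 4 rose and none fell, with a median log2 fold change of 1.96. miR-223-3p, which restrains the activation of neutrophils and macrophages, had 1301, 1286 and 1758 CPM in the U360 libraries, against 77.1, 124 and 702 CPM in the U90 libraries. All 3 U360 libraries lay above all 3 U90 libraries, and U90 replicate 3 lay far above the other U90 libraries. Its log2 fold change was 2.92 ± 0.59 (limma adjusted p = 0.011), with 2.27 to 3.86 when a library was left out. The other arm of the hairpin, miR-223-5p, rose by 1.81 ± 0.37 (limma adjusted p = 0.011). miR-147-3p, which mouse macrophages induce on stimulation of Toll-like receptors, had 41.9, 46.0 and 97.3 CPM in the U360 libraries, against 3.55, 2.80 and 14.2 CPM in the U90 libraries. The groups did not overlap, and U360 replicate 3 and U90 replicate 3 were the high libraries of their groups. Its log2 fold change of 3.19 ± 0.57 was the greatest rise among the 590 arms (limma adjusted p = 0.0092), with 2.81 to 3.81 when a library was left out. miR-147-5p had 19.0, 12.2 and 15.5 CPM in the U360 libraries, against 0.887, 1.29 and 11.3 CPM in the U90 libraries, a rise of 2.12 ± 0.52 (limma adjusted p = 0.02). U90 replicates 1 and 2 held only a few reads of it, and U90 replicate 3 lay close to the U360 libraries. The arms of miR-511, a miRNA of the macrophage mannose receptor gene Mrc1, did not pass, at 0.19 for miR-511-3p (95% interval -0.46 to 0.84) and -0.42 for miR-511-5p (95% interval -1.07 to 0.22). In bulk skin, fewer or more cells of a type and less or more RNA per cell cannot be told apart.

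Summed over the 6 myeloid arms, the level was 124, 148 and 98.6 CPM in unirradiated skin, 148, 209 and 890.3 CPM at 90 mJ/cm2, 431, 177 and 391 CPM at 180 mJ/cm2 and 1602, 1584 and 2197 CPM at 360 mJ/cm2. The 3 libraries at 360 mJ/cm2 were the highest of the 12, followed by U90 replicate 3. In the U360 and U90 libraries miR-223-3p made up most of the sum. Among 9 tested arms of lymphocyte or shared leukocyte miRNAs, 2 rose and none fell (5.93% of all 590 rose), and the median was -0.02. Both were arms of miR-142a, a miRNA of all blood cell lineages. miR-142a-3p had 373, 318 and 485 CPM in the U360 libraries, against 99.6, 68.1 and 203 CPM in the U90 libraries, without overlap. It rose by 1.78 ± 0.34 (limma adjusted p = 0.011), with 1.43 to 2.22 when a library was left out, and miR-142a-5p rose by 1.09 ± 0.29 (adjusted p = 0.026). miR-150-5p, a miRNA of mature lymphocytes, did not pass, at -0.34 (95% interval -0.99 to 0.31). Nor did miR-155-5p, which activated leukocytes induce, at 0.53 (0.01 to 1.06; adjusted p = 0.17), although its U360 libraries lay above its U90 libraries. miR-146a-5p, a feedback repressor of NF-kB signalling, stood at -0.47 (-0.91 to -0.04; adjusted p = 0.15).

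miR-139-5p, encoded in an intron of the phosphodiesterase gene Pde2a (chr7:101475382-101475403, plus strand, GRCm38), had 890.3, 816 and 1494 CPM in the U360 libraries, against 165, 180.3 and 584 CPM in the U90 libraries. The groups did not overlap and U90 replicate 3 again lay nearest to U360. It rose by 1.98 ± 0.44 (limma adjusted p = 0.015), with 1.66 to 2.57 when a library was left out. It stood at 204, 185 and 114 CPM in unirradiated skin and 477, 185 and 255 CPM at 180 mJ/cm2.

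Of all 590 arms, 5.93% rose and 5.25% fell. Among 14 tested arms of miRNAs induced by injury or inflammation, 1 rose, 1 fell and 12 did not pass, with a median of 0.06. The arm that rose was miR-21a-5p, encoded within the gene Vmp1 (chr11:86584120-86584141, minus strand, GRCm38). It had 177643, 192652 and 178726 CPM in the U360 libraries, against 72954, 104232 and 145390.1 CPM in the U90 libraries. U360 libraries were close to each other, U90 libraries were spread over a range that ended below them, and U90 replicate 3 was the highest. The means were 183007 ± 8370.2 CPM in U360 and 107526 ± 36330.0 CPM in U90 (SD, n = 3 each), a rise of 0.82 ± 0.25 (limma adjusted p = 0.043), with 0.57 to 1.07 when a library was left out. miR-21c, with the same seed and 16 of 21 bases in common, rose by 0.93 ± 0.26 (limma adjusted p = 0.033), and reads of such similar arms may be shared. miR-21a-3p, the other arm of the miR-21a hairpin, had 6.89 to 21.1 CPM and stood at 0.48 (95% interval -0.28 to 1.24).

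The arm that fell was miR-31-5p, a miRNA of hyperproliferative epidermis. It had 184, 322 and 200.4 CPM in the U360 libraries, against 473, 582 and 319 CPM in the U90 libraries. U360 replicate 2 and U90 replicate 3 were nearly level, so the groups overlapped by a narrow margin. Its log2 fold change was -0.96 ± 0.28 (limma adjusted p = 0.037), with -1.21 to -0.77 when a library was left out. Across the doses it did not run in 1 direction, with 202, 261 and 305 CPM in unirradiated skin, 473, 582 and 319 CPM at 90 mJ/cm2, 495, 516 and 738 CPM at 180 mJ/cm2 and 184, 322 and 200.4 CPM at 360 mJ/cm2. U360 replicates 1 and 3 lay just below the range of unirradiated skin and U360 replicate 2 just above it, and as a group the 180 mJ/cm2 libraries held the most. miR-132-3p and miR-222-3p, also on the list, did not pass at 0.52 (adjusted p = 0.27) and -0.68 (adjusted p = 0.08).

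Endothelial miR-126a-3p, encoded in Egfl7, had 21459, 22079 and 24935 CPM in the U360 libraries, against 10976, 12699.6 and 16138 CPM in the U90 libraries, without overlap, and rose by 0.80 ± 0.19 (limma adjusted p = 0.017). The other arm of its hairpin did not pass, with miR-126a-5p at 0.16 (95% interval -0.35 to 0.68).

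Of 14 tested arms of the miR-200 family, miR-203 and miR-205, 6 fell and none rose, and the median was -0.96. miR-203-3p, which drives keratinocytes out of the cell cycle into differentiation, had 9549.5, 28063 and 8216 CPM in the U360 libraries, against 65259.6, 70261 and 21585 CPM in the U90 libraries. U360 replicates 1 and 3 lay below every U90 library, while U360 replicate 2 exceeded U90 replicate 3, so the groups overlapped. The log2 fold change of miR-203-3p was -1.83 ± 0.48 (limma adjusted p = 0.027), with -2.38 to -1.50 when a library was left out and -2.38 without U90 replicate 3. miR-205-5p, a miRNA of basal keratinocytes, had 1999.7, 4411 and 1525 CPM in the U360 libraries, against 8144, 9828 and 3712 CPM in the U90 libraries. The pattern over libraries was the same as that of miR-203-3p, and the log2 fold change was -1.49 ± 0.38 (limma adjusted p = 0.026).

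The miR-200 family keeps epithelial cells epithelial by repressing Zeb1 and Zeb2. Its members fall into a pair of seed groups, visible in the sequences above. Of the AACACUG group, miR-200a-3p had 112, 316 and 111 CPM in the U360 libraries, against 1236, 969.8 and 314 CPM in the U90 libraries. U360 replicate 2 and U90 replicate 3 were level and the other libraries were well apart, and the log2 fold change was -2.18 ± 0.45 (limma adjusted p = 0.011), with -2.78 to -1.80 when a library was left out. miR-141-3p, of the same group and with 20 of 22 bases in common, had a log2 fold change of -1.29 ± 0.39 (adjusted p = 0.044), with -1.83 to -0.85 when a library was left out. Of the AAUACUG group, miR-429-3p had a log2 fold change of -1.78 ± 0.45 (adjusted p = 0.026) and miR-200b-3p of -1.50 ± 0.46 (adjusted p = 0.048). The third member, miR-200c-3p, did not pass, at -0.72 ± 0.34 (adjusted p = 0.17). The hairpins of miR-200a, miR-200b and miR-429 lie together on chromosome 4 (chr4:156053916-156055742, GRCm38), and 3 of their 5 tested arms with a RefSeq entry fell.

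Summed over the 14 epithelial arms, the level was 13351, 36748 and 11818 CPM in the U360 libraries, against 82151, 89057 and 28300.0 CPM in the U90 libraries. U90 replicate 3 was the lowest of its group and U360 replicate 2 the highest of its own. As miR-203-3p made up most of each sum, the sums largely repeat its values. In the same libraries the sum of the myeloid arms, most of it miR-223-3p, was 1602, 1584 and 2197 CPM in U360 and 148, 209 and 890.3 CPM in U90. The library with few epithelial reads among U90 was thus also the one with many myeloid reads. The part of the tissue's cell makeup in these results was not tested. The most abundant muscle arm, miR-1a-3p, had 169148, 145352 and 190460.1 CPM in the U360 libraries, against 157703, 165806 and 150875 CPM in the U90 libraries, with overlapping groups and a log2 fold change of 0.08 (95% interval -0.47 to 0.64).

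Of the miR-183, miR-96 and miR-182 cluster, expressed in sensory cells and epithelia, 3 of 6 tested arms fell and none rose, with a median of -1.04. miR-183-5p had 625, 1268 and 744 CPM in the U360 libraries, against 3192, 3329 and 1299 CPM in the U90 libraries. The groups did not overlap, by a narrow margin between U360 replicate 2 and U90 replicate 3, and the log2 fold change was -1.52 ± 0.33 (limma adjusted p = 0.015). miR-96-5p had a log2 fold change of -1.24 ± 0.29 (adjusted p = 0.017) and miR-182-5p of -1.16 ± 0.35 (adjusted p = 0.044). The 3 arms that did not pass were the scarce 3p arms, at 0.493 to 5.39 CPM. miR-375-3p, known from Merkel and other neuroendocrine cells, had 4.19, 3.64 and 0.948 CPM in the U360 libraries, against 14.2, 11.4 and 2.87 CPM in the U90 libraries. Its log2 fold change of -1.32 (95% interval -2.57 to -0.07) did not pass (adjusted p = 0.16).

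**Figure D3:**
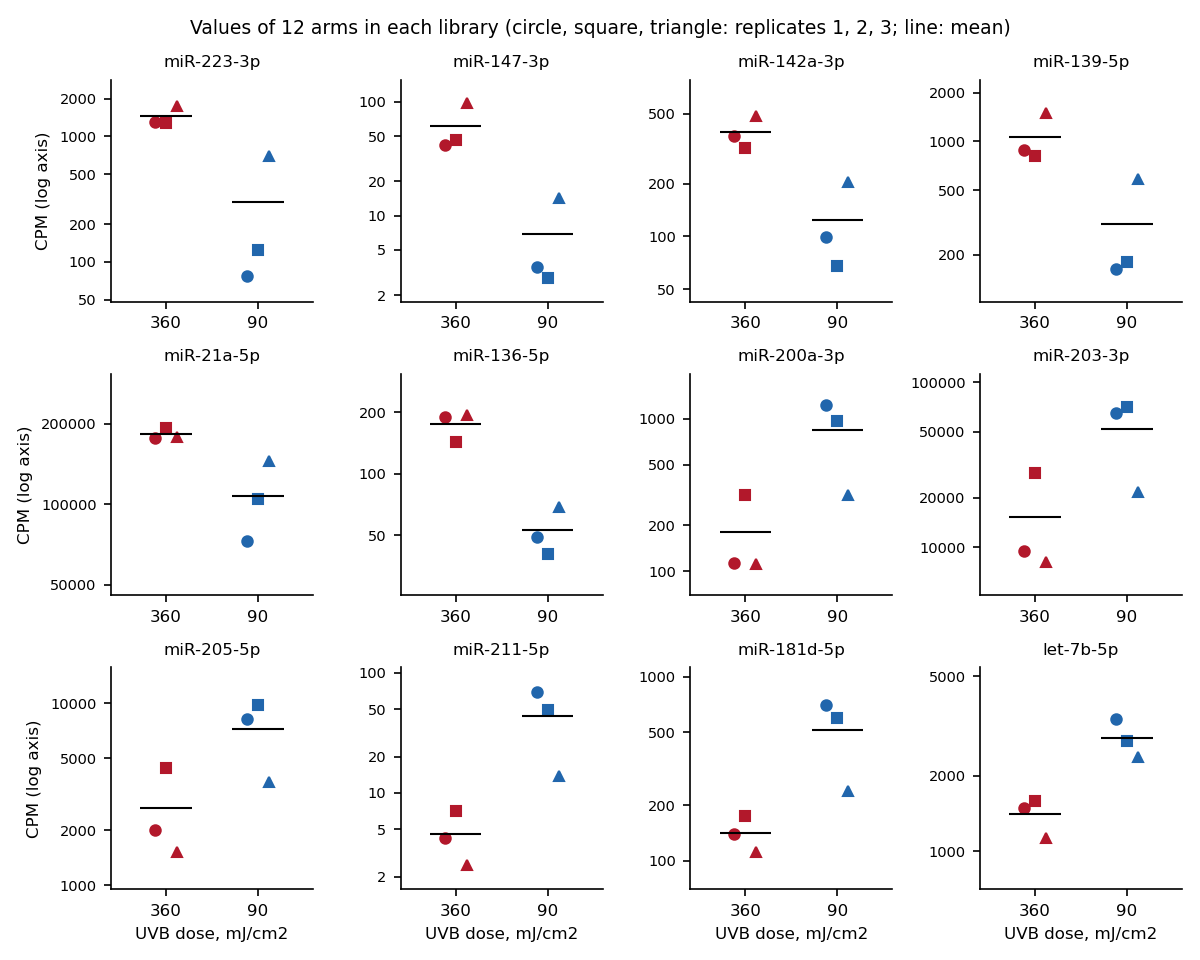
Each panel shows an arm in the 6 libraries, with CPM on a log axis and the UVB dose across, 360 mJ/cm2 in red and 90 mJ/cm2 in blue, where circles, squares and triangles are replicates 1, 2 and 3 and the line is the mean. In all 12 panels the triangle of U90 is the blue point nearest to the red mean, and the red and blue points overlap in height for miR-200a-3p, miR-203-3p and miR-205-5p.

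Of 3 tested pigment-cell arms, 2 fell and none rose, and the third, miR-211-3p, did not pass (-0.97, adjusted p = 0.22). miR-211-5p, encoded in an intron of the melanocyte gene Trpm1 (chr7:64205831-64205852, plus strand, GRCm38) and under the control of the pigment-cell factor MITF, had 4.19, 7.02 and 2.53 CPM in the U360 libraries, against 69.5, 48.7 and 13.96 CPM in the U90 libraries. All U360 libraries lay below all U90 libraries, and U90 replicate 3 lay well under the other U90 libraries. The log2 fold change of -2.83 ± 0.55 was the greatest fall among the 590 arms (limma adjusted p = 0.011), with -3.49 to -2.37 when a library was left out. miR-204-5p, which shares the seed and 21 of 22 bases with miR-211-5p and lies in an intron of Trpm3, had 8.38, 4.16 and 7.27 CPM in the U360 libraries, against 17.4, 18.1 and 12.9 CPM in the U90 libraries. Its groups did not overlap, and its log2 fold change was -1.21 ± 0.29 (limma adjusted p = 0.018). As the sequences differ at a single base, some reads may have been assigned to either. In unirradiated skin miR-211-5p had 53.9, 79.9 and 117 CPM and at 180 mJ/cm2 7.21, 31.9 and 19.6 CPM.

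Of 22 tested let-7 arms, 5 fell and 1 rose, with a median of -0.46. let-7 miRNAs restrain growth genes such as Hmga2 and Lin28. The 11 tested arms with a RefSeq entry and the seed GAGGUAG had log2 fold changes of -1.02 to -0.06. Of these, 5 passed, namely let-7a-5p, let-7b-5p, let-7c-5p, let-7d-5p and let-7e-5p. let-7b-5p had 1492, 1586 and 1128 CPM in the U360 libraries, against 3386, 2752 and 2366 CPM in the U90 libraries, without overlap, and its log2 fold change was -1.01 ± 0.20 (limma adjusted p = 0.011). let-7c-5p followed at -0.92 ± 0.21 (adjusted p = 0.017) and let-7a-5p at -0.76 ± 0.21 (adjusted p = 0.033). The most abundant members did not pass, let-7i-5p at -0.15 (95% interval -0.51 to 0.22) and let-7f-5p at -0.51 (-0.95 to -0.08). let-7j, which shares 6 of the 7 seed bases and 17 of the first 22 bases with let-7a-5p, had 3859, 4559.7 and 3931 CPM in the U360 libraries, against 2639, 2447 and 3128 CPM in the U90 libraries. It rose by 0.59 ± 0.18 (limma adjusted p = 0.04996), and its groups did not overlap. let-7 arms differ by single bases, so their reads may be shared.

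Of 8 tested arms of the miR-181 family, 2 fell and none rose, with a median of -0.93. They were the neighbours miR-181c-5p and miR-181d-5p, whose hairpins lie in an intron of Nanos3 on chromosome 8 and whose seed, ACAUUCA, all 4 main arms share. miR-181d-5p had 139, 175 and 112 CPM in the U360 libraries, against 704, 597 and 238 CPM in the U90 libraries. U360 libraries lay below all U90 libraries and U90 replicate 3 was the lowest of its group. Its log2 fold change was -1.73 ± 0.34 (limma adjusted p = 0.011), with -2.21 to -1.43 when a library was left out, and that of miR-181c-5p was -1.06 ± 0.26 (adjusted p = 0.021). The more abundant miR-181a-5p, known for tuning T-cell receptor signals, did not pass at -0.35 (95% interval -0.81 to 0.12), nor did miR-181b-5p at -0.87 (adjusted p = 0.058). The miR-17/92 cluster and its relatives promote proliferation. Of their 19 tested arms, 2 fell and none rose (5.25% of all 590 arms fell), with a median of 0.10. These were miR-92a-3p at -1.05 ± 0.31 (limma adjusted p = 0.043) and miR-25-5p at -1.63 ± 0.38 (adjusted p = 0.017).

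Of 11 tested arms of the X-linked miR-322 and miR-503 cluster, 4 rose and none fell, with a median of 0.90. miR-322 and miR-503 belong to the wider miR-15/16 family, which slows the cell cycle through cyclins. miR-503-5p had 51.0, 63.2 and 61.9 CPM in the U360 libraries, against 20.4, 19.2 and 32.4 CPM in the U90 libraries, without overlap, and rose by 1.29 ± 0.28 (limma adjusted p = 0.015). miR-322-5p had 96.3, 114 and 110.3 CPM in the U360 libraries, against 47.3, 53 and 68.6 CPM in the U90 libraries and rose by 0.93 ± 0.22 (adjusted p = 0.017). Leaving out a library gave 1.15 to 1.52 for miR-503-5p and 0.81 to 1.08 for miR-322-5p. miR-542-3p and miR-450b-5p, also of the cluster, rose by 0.97 ± 0.25 (adjusted p = 0.026) and 0.99 ± 0.30 (adjusted p = 0.044). Both arms of miR-351 in the same cluster did not pass, with miR-351-5p at -0.16 (95% interval -0.72 to 0.40). The 6 tested arms with a RefSeq entry and the seed AGCAGCA had log2 fold changes of 0.15 to 0.93, and apart from miR-322-5p only miR-15b-5p passed. It had 203, 211 and 213 CPM in the U360 libraries, against 126, 126 and 131 CPM in the U90 libraries, close values within each dose, and rose by 0.71 ± 0.19 (limma adjusted p = 0.031).

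In the imprinted Dlk1-Dio3 region of chromosome 12 (chr12:109563744-109747949, GRCm38), miRNAs are made from the maternal copy. Tested arms without a RefSeq entry, such as miR-485-5p, are not counted here, which leaves 74 tested arms in the region. Of these, 5 rose, 1 fell and 68 did not pass (of all 590 arms, 5.93% rose and 5.25% fell), and the median was 0.08. miR-136-5p, which lies opposite to the gene Rtl1 and can pair with its message in full, had 189.7, 143 and 193 CPM in the U360 libraries, against 49.4, 40.7 and 68.8 CPM in the U90 libraries. The U360 libraries lay well above the U90 libraries, and U90 replicate 3 was less apart from its group than for the myeloid arms. It rose by 1.73 ± 0.29 (limma adjusted p = 0.0092), with 1.56 to 1.93 when a library was left out. The others that rose were miR-379-5p (0.89 ± 0.21), miR-134-5p (0.91 ± 0.21), miR-667-5p (0.99 ± 0.28) and miR-431-5p (0.80 ± 0.23), with adjusted p-values of 0.017, 0.017, 0.035 and 0.039 in limma. miR-376b-3p had 33.3, 28.1 and 23.7 CPM in the U360 libraries, against 60.0, 56.4 and 56.5 CPM in the U90 libraries, without overlap, and a log2 fold change of -1.01 ± 0.21 (adjusted p = 0.012).

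Other arms that passed belonged to no list or to a list with little change. miR-140-3p and miR-140-5p, known from cartilage, rose by 0.97 ± 0.21 and 0.90 ± 0.23 (limma adjusted p = 0.015 and 0.026). miR-378a-3p, of the metabolic regulator gene Ppargc1b, rose by 0.64 ± 0.19 (adjusted p = 0.044). miR-467a-5p and miR-467b-5p had the same value in every library, so they count as a single measurement, and rose by 1.04 ± 0.30 (limma adjusted p = 0.037). miR-6240, the arm that still passed without U360 replicate 3, had only 8.62, 9.11 and 5.69 CPM in the U360 libraries, against 1.77, 1.08 and 2.46 CPM in the U90 libraries, and rose by 1.68 ± 0.30 (limma adjusted p = 0.0092). In all, 9 of the 66 arms had a mean under 10 CPM over the 6 libraries, where log2(CPM + 1) understates a change. Of smooth muscle and fibroblast arms, 1 of 11 fell and none rose (5.25% of all 590 arms fell), with a median of 0.04. It was miR-145a-5p, which keeps smooth muscle cells contractile, with 613, 781 and 444 CPM in the U360 libraries, against 1077, 1193 and 1127 CPM in the U90 libraries, without overlap. Its log2 fold change was -0.92 ± 0.22 (limma adjusted p = 0.017).

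Of 8 tested p53-responsive arms, 1 rose and none fell (5.93% of all 590 arms rose), with a median of 0.56. It was miR-194-5p, with 128, 117 and 135 CPM in the U360 libraries, against 62.4, 63.1 and 65.3 CPM in the U90 libraries and a rise of 0.98 ± 0.28 (limma adjusted p = 0.039). The U90 values were close together and the U360 values were all higher, but unirradiated skin held 70.2, 87.2 and 185 CPM, a range that holds the U360 values and lies above the U90 values. miR-34c-5p had 744, 925 and 912 CPM in the U360 libraries, against 494, 612 and 615 CPM in the U90 libraries, without overlap, yet did not pass at 0.59 (95% interval -0.04 to 1.22; adjusted p = 0.22). miR-34b-5p stood at 0.16 (-0.46 to 0.77) and miR-34a-5p at -0.53 (-0.99 to -0.06). No arm passed among 5 of the miR-29 family (median 0.57), 11 of the miR-30 family (median -0.39), 7 of miR-193 and miR-365 (median -0.16), 6 of skeletal muscle (median 0.22), 7 of red blood cells (median 0.23) or 2 of hypoxia. These intervals leave room for changes of the size that passed elsewhere, as for miR-29c-3p at 0.81 (-0.08 to 1.69) and miR-30d-5p at -0.63 (-1.07 to -0.19; adjusted p = 0.063). Neural arms had 1 call in 7, miR-129b-5p, a scarce arm at 0 to 2.53 CPM that rose by 1.20 ± 0.31 (limma adjusted p = 0.026). As its values reached under the limit that a count of 0 allows, no size is read from that rise. Liver or gut arms had 1 call in 5, miR-194-5p again.

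**Figure D4:**
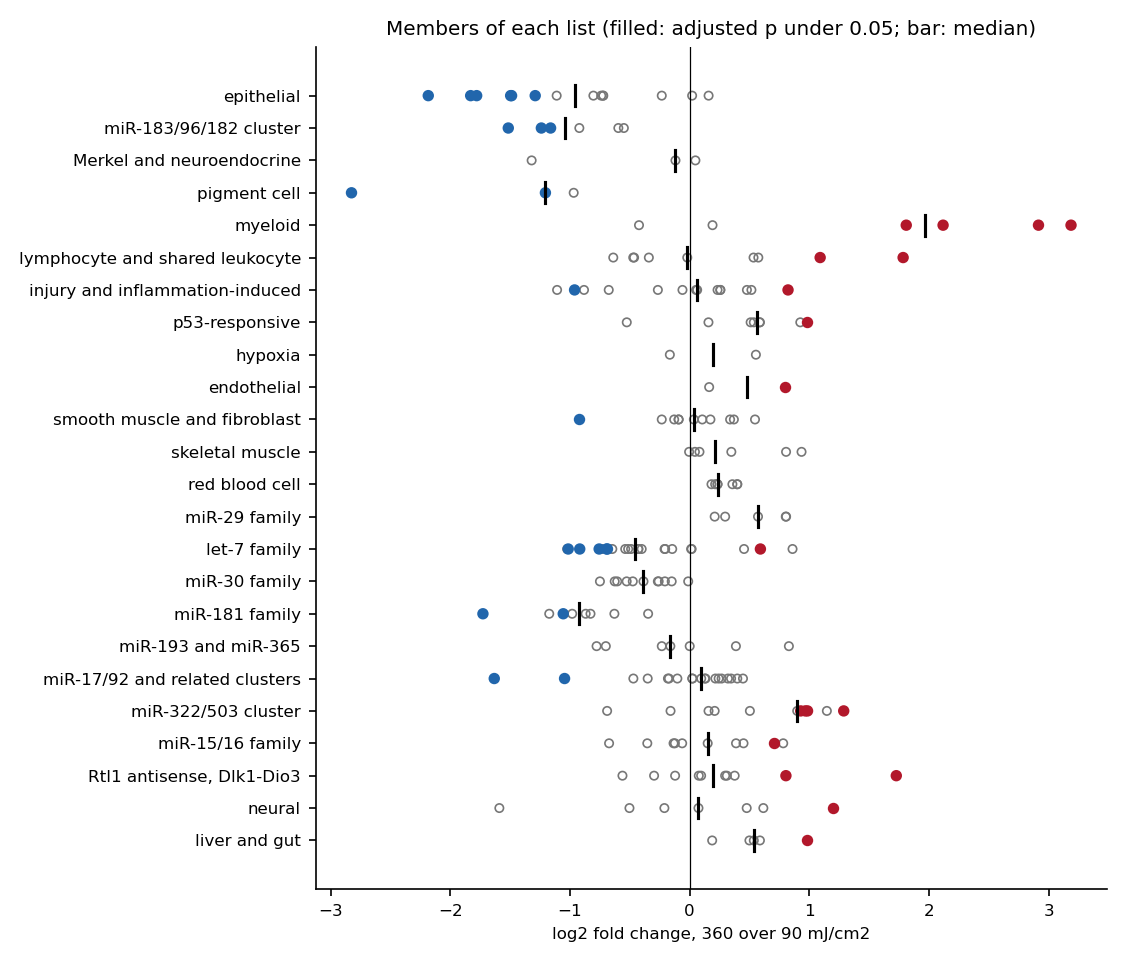
Each row is a list of arms and each point a tested member, with its log2 fold change of 360 over 90 mJ/cm2 across. Filled points had an adjusted p under 0.05 (limma; red higher, blue lower), open points did not, and the black bar is the list's median, which runs between -1.21 for pigment cells and 1.96 for myeloid cells.

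Both arms of a hairpin are read in the same library, so the ratio of the 5p to the 3p arm hardly depends on how libraries are scaled to each other. Not all hairpins are separate measurements, since miR-486a and miR-486b had identical values in both arms, and miR-199a and miR-199b in the 3p arm. With each name counted, both arms were tested for 166 hairpins. Both passed in 4 of these, in the same direction each time, 1 arm passed in 38 and neither in 124. The ratio itself, as log2(CPM + 1) of the 5p arm minus that of the 3p arm, was tested with limma over the 166 hairpins, a test added after the arms' values were seen. It passed for 13 hairpins (7.83%), with 9 shifted towards the 5p arm and 4 towards the 3p arm at 360 mJ/cm2, and for these 13 the groups did not overlap. When each of the 12 libraries was left out in turn, 6 to 31 hairpins passed, and 6 hairpins passed every time. These were miR-136, miR-25, miR-200a, miR-211, miR-485 and miR-382.

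For miR-136 the ratio was -0.33, -0.87 and -0.35 in the U360 libraries and -2.33, -2.65 and -2.11 in the U90 libraries. The U360 values stood well above those of U90 in every library, and U90 replicate 3 did not stand apart. The shift was 1.85 ± 0.25 log2 units towards the 5p arm (95% interval 1.31 to 2.39; limma adjusted p = 0.00051), with 1.71 to 2.03 when a library was left out. Only the 5p arm, given above, passed, while miR-136-3p had 238, 262 and 246 CPM in the U360 libraries, against 253, 260.5 and 301 CPM in the U90 libraries, with overlapping groups and a log2 fold change of -0.12 (95% interval -0.63 to 0.39). The ratio was -1.99, -2.46 and -2.12 in unirradiated skin and -2.04, -1.64 and -1.69 at 180 mJ/cm2, so the 3 libraries at 360 mJ/cm2 had the highest values of the 12.

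miR-25, encoded in Mcm7 (chr5:138165332-138165353, minus strand for the 3p arm, GRCm38), shifted the other way. miR-25-3p, the main arm, had 2230.0, 2611 and 2297 CPM in the U360 libraries, against 1964, 2272 and 1719 CPM in the U90 libraries, with overlapping groups, and did not pass at 0.27 (95% interval -0.18 to 0.71). miR-25-5p had 2.46, 2.08 and 1.58 CPM in the U360 libraries, against 13.6, 8.83 and 4.72 CPM in the U90 libraries, with all U360 libraries below all U90 libraries. The ratio was -9.33, -9.73 and -9.80 in U360 and -7.07, -7.85 and -8.23 in U90, a shift of -1.90 ± 0.30 (limma adjusted p = 0.0015), with -2.16 to -1.58 when a library was left out. As miR-25-5p was scarce, the size of the shift depended on the pseudocount, -2.08 with 0.5 and -1.22 with 5.

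For miR-200a the ratio was -0.56, -1.06 and -0.08 in U360 and -2.06, -2.24 and -1.79 in U90. The shift of 1.46 ± 0.27 (limma adjusted p = 0.0036) went with a 3p arm at -2.18 and a 5p arm at -0.72 (95% interval -1.52 to 0.07; adjusted p = 0.22). Here the groups did not overlap, although they did for miR-200a-3p itself. The ratio was -3.63, -3.40 and -3.36 in unirradiated skin and -1.70, -1.44 and -1.74 at 180 mJ/cm2, so the 3p arm made up less of the hairpin's reads in each irradiated group than in unirradiated skin. miR-141, with the same 3p seed, shifted in the same direction by 1.06 ± 0.24 (limma adjusted p = 0.011), and this call was lost without U90 replicate 1 or 2 (adjusted p up to 0.071).

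The neighbouring Dlk1-Dio3 hairpins miR-485 and miR-382 shifted towards their 5p arms by 1.11 ± 0.22 and 1.17 ± 0.24 (limma adjusted p = 0.0054 for each). For miR-382 the ratio was 0.51, 0.15 and 0.81 in U360 and -0.87, -0.74 and -0.44 in U90. In both hairpins the ratio was above 0 in all 3 U360 libraries and below 0 in all 3 U90 libraries. In unirradiated skin the miR-485 ratio was -0.14, 0.06 and 0.09, nearer to its U360 mean of 0.32 than to its U90 mean of -0.79. The miR-382 ratio was -0.81, -0.60 and -0.45 in unirradiated skin, near its U90 values. Neither arm of either hairpin passed on its own. miR-485-5p stood at 0.61 and miR-485-3p at -0.50, miR-382-5p at 0.66 and miR-382-3p at -0.51. The miR-211 shift of -1.86 ± 0.37 (adjusted p = 0.0054) rests on a 3p arm with 0.246, 0 and 0 CPM in the U360 libraries, against 1.77, 2.37 and 0 CPM in the U90 libraries, at or under the limit that a count of 0 allows in 4 of the 6 libraries, so no size is read from it. The other 6 hairpins that passed were miR-872 (1.28), miR-139 (1.40), miR-376b (1.23) and miR-15b (0.83) towards the 5p arm, and let-7g (-1.40) and miR-378a (-0.91) towards the 3p arm. The size of the let-7g shift depended on the pseudocount, -1.80 with 0.5 and -0.79 with 5. Each of the 6 lost its call without U90 replicate 1 and without U90 replicate 2. With a pseudocount of 1, the mean let-7g ratio was 12.64 in unirradiated skin, 14.09 in U90 and 12.70 in U360. That of miR-376b was 0.11, -1.56 and -0.33 in the same order. For these hairpins U360 lay nearer to unirradiated skin than U90 did at that pseudocount. As the let-7g shift depended on the pseudocount, no size is read from its means. For miR-872, miR-139, miR-15b and miR-378a the U90 mean was the nearer.

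**Figure D5:**
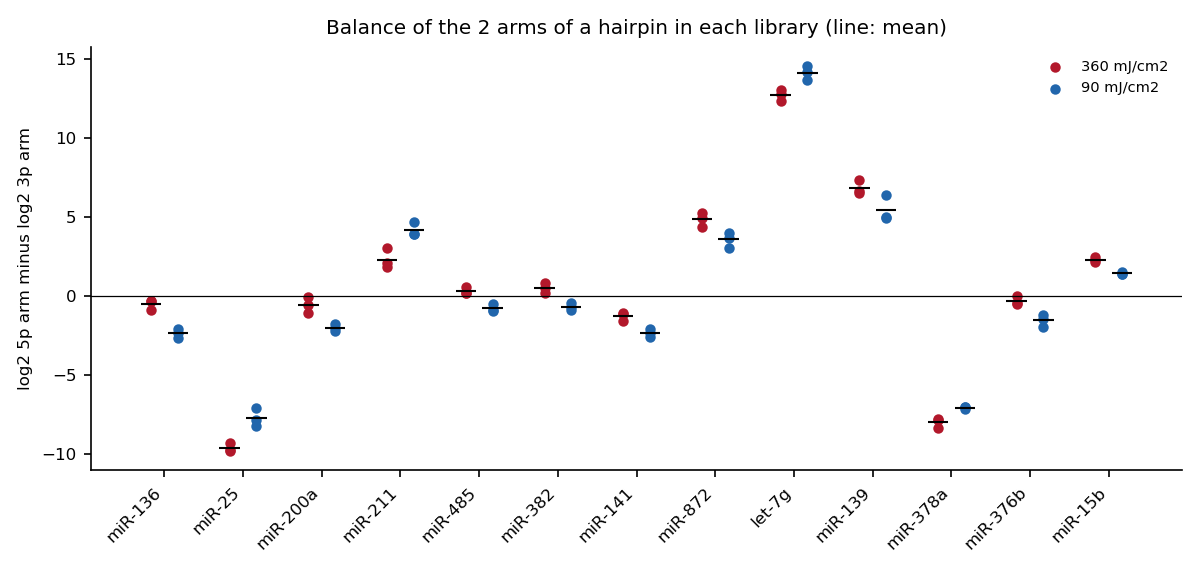
For each of the 13 hairpins that passed, points give log2(CPM + 1) of the 5p arm minus that of the 3p arm in each library, U360 in red and U90 in blue, and lines give the means. Values above 0 mean more reads of the 5p arm, and the red points of miR-485 and miR-382 lie above 0 while the blue points lie below it.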

How the data were processed

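Per the labels' protocols, skin was flash frozen, RNA was taken up in Trizol, and NEBNext small RNA libraries were read on a NextSeq 500. The authors deposited 1 table of CPM, with 1519 arms and 12 libraries. The submitters' processing notes name mm9. No aligner, counter or miRBase release is given in the sources used here. Ligation favours some RNA ends, so levels of different arms are not comparable. All values (100%) were whole multiples of 1 read within 0.01 reads, so reads were recovered. Replicates differed far beyond sampling noise (chi-square over degrees of freedom 130 to 630), so each library counted as 1 replicate.

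Groups came from the titles. limma 3.58.1 (R 4.3.3) with a trend was run on log2(CPM + 1) of the 590 arms in 1 fit of all 12 libraries with a mean per group, two-sided, Benjamini-Hochberg adjusted over 590 arms (threshold 0.05). As the table held no counts, edgeR 4.0.16 and DESeq2 1.42.0 were run as alternatives on the recovered reads. Others were pseudocounts of 0.5 and 5, filters, scalings, a replicate term, array weights and leaving out each library. The hairpin ratio, with its leave-outs and pseudocounts, and edgeR without each library were chosen after seeing the data. An exact permutation test of 3 against 3 cannot go below 0.1, so none is given. Arms named in detail were the 15 with the largest change in each direction among those that passed with a mean of at least 10 CPM, the 10 most abundant, up to 4 per list and 13 others. Further arms are named where a count or a hairpin needed it, chosen after seeing their values. The members and the 24 lists were chosen with earlier results of these data known. List counts carry no test, and skin cells of several types share many of the arms. On simulated data for this comparison (576 arms), limma called 45 of 55 arms changed by -2, 23 of 42 by -1, 25 of 50 by 1, 43 of 47 by 2 and 5 of 382 unchanged. Each arm was drawn independently there, with no shift shared by many arms of a library, such as that of U90 replicate 3. These rates therefore need not hold for the real libraries. Of the 590 arms, 24 in 11 sets had values identical to another arm's. Coordinates are RefSeq's (GRCm38.p6), with host genes from GENCODE's annotation of that build.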

Additional observations from a re-analysis of the deposited data

How the results depend on the processing

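Each of the 66 arms that passed kept its direction under every setting in which it was tested. For the 57 without overlap, leaving out 1 library could not have reversed it in limma. Leaving out 1 library gave 0 to 88 arms past the threshold (0 to 42 higher, 0 to 51 lower) in limma, and 0 to 101 in edgeR, chosen after seeing the data. The lowest counts were those without U90 replicate 1, U90 replicate 2 or U360 replicate 3, and edgeR gave 101 (65 lower) without control replicate 3, 47 lower without control replicate 1, 26 (10 higher, 16 lower) without U360 replicate 1 and 20 higher without U360 replicate 2. Arms without overlap numbered 233 to 300 without 1 of the 6 U360 and U90 libraries, against 192 with all. A group with fewer libraries separates more readily, so that rise is built in. Hairpins past the threshold numbered 6 to 31 without any 1 of the 12 libraries. Without a filter, with all 1519 arms in the fit, 43 arms passed (23 higher, 20 lower). DESeq2 called 57 lower arms, and totals that left out miR-21a-5p and miR-1a-3p gave 20. Array weights gave 158 arms (74 higher, 84 lower), and a pseudocount of 5 gave 33 hairpins. The causes of the change without a filter and of the last 4 changes were not tested. With the replicate number as a block 68 arms passed, 63 of them among the 66. Same-numbered deviations correlated at -0.13, 0.24 and 0.14, and differently numbered ones at -0.29 to 0.16. With 3 libraries per group this cannot decide whether the numbers pair the libraries. As the labels state no pairing, the numbers are taken as names only. Depth limits arms under about 1 CPM, where a library can hold fewer than 3 reads.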
